A study of Danio rerio with 16 samples.

Results

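Solitary CpGs are here the CpGs that stand alone among listed CpGs, with the nearest listed CpG on each side 150 bp or more away. Of the 10260021 nuclear CpGs of the zebrafish genome (build danRer10) that had calls in every library, 173971 (1.70%) met this rule, with neighbours looked up among the 18451728 CpGs listed for either replicate. They were set against 3677046 dense CpGs (35.8%), which have 4 or more listed CpGs within 50 bp, counted over both sides. The rule uses no methylation value, but it rests on coverage as well as position, since only CpGs with calls are listed.

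The CpGs were measured by whole-genome bisulfite sequencing (WGBS) in PGCs, the primordial germ cells that found the germline, and in somatic cells of the same stages. Both were sorted by FACS at 4, 7, 24 and 36 hours post-fertilization (hpf) from embryos of a transgenic line (kop-egfp-f-nanos3′UTR in the labels, with cry-DsRed added in the study's own text), in which the kop promoter drives GFP and the nanos3 UTR keeps it in PGCs, so both cell types carry the transgene, and the labels name no tissue for the somatic cells. Each of the 8 groups, PGC and soma at each stage, had 2 libraries, 16 in all, and the labels name no difference in genotype or treatment. The study's methods add that pigmentation was blocked with N-phenylthiourea once embryos were past 24 hpf and that rearing temperature varied, so at 36 hpf this treatment cannot be told apart from the stage, and the temperature of each group was not given in the sources used here. The age of the parents and the number of embryos pooled were not given in the sources used here. The study's methods call the replicates technical at 4 hpf and biological at the other stages, without saying what a biological replicate was, so p-values measure the spread between these libraries, which at 4 hpf may be technical.

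In vertebrates most CpGs carry 5-methylcytosine (5mC), and unmethylated CpGs are mostly found where CpGs crowd together, as at CpG islands. A methylated cytosine can deaminate to thymine, and this loss has left CpGs scarce and far apart over most of the genome. After replication, UHRF1 recognises the hemimethylated CpG and brings in DNMT1, which copies the mark to the new strand. In mammals solitary CpGs in late-replicating parts of the genome are known to lose methylation in dividing cells and tumours, and zebrafish embryos pass paternal methylation on without the genome-wide erasure known from mammalian embryos.

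The nearer neighbour of a solitary CpG lay at a median of 193 bp (quartiles 168 and 244 bp), and the farther one at a median of 326 bp. Over all CpGs with calls in every library, the nearest neighbour lay at a median of 13 bp. Of the solitary CpGs, 79388 had no neighbour within 200 bp, 22541 none within 300 bp, 3862 none within 500 bp and 372 none within 1000 bp. A total of 39141 (22.5%) had another solitary CpG as their next listed CpG on 1 side or both, and those pairs are not independent places in the genome. A CpG is listed only where all 8 libraries of a replicate had a call, so unlisted CpGs may lie closer: of 424532 CpGs that were solitary by the shallower replicate 1 table alone, 41.0% were so in the 2 tables together.

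The libraries held between 25967678 calls (soma at 4 hpf, replicate 1) and 250228561 calls (PGC at 7 hpf, replicate 2). A solitary CpG had on average between 2.40 and 17.8 calls in a library, against between 2.68 and 22.8 calls for a dense CpG. Summed over the libraries, the median solitary CpG had 137 calls and the median dense CpG 187 calls. Unmethylated lambda DNA read as methylated in 0.233% to 0.452% of calls in the replicate 1 libraries. In the replicate 2 libraries, 50 to 221 lambda calls per library gave between 0% and 4.58%. A small set of solitary CpGs, 1817 (1.04%), carried over 549 calls, 3 times the median of all CpGs, and made up 14.8% of all calls at solitary CpGs, against 0.300% of dense CpGs and 1.95% of their calls. Results are therefore also given without these CpGs of excess coverage where that matters.

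Solitary CpGs were highly methylated in all 16 libraries, at 85.04% to 91.23% of calls, and were about 4 percentage points lower at 24 and 36 hpf than at 4 and 7 hpf. The methylation level is the number of methylated calls over all calls, summed over the CpGs of a class in a library. In PGCs solitary CpGs were at 89.92% and 90.54% (4 hpf), 90.92% and 91.23% (7 hpf), 86.98% and 87.88% (24 hpf), and 85.36% and 85.45% (36 hpf) in replicates 1 and 2. In somatic cells they were at 89.01% and 90.74% (4 hpf), 89.67% and 90.67% (7 hpf), 86.19% and 86.97% (24 hpf), and 85.52% and 85.04% (36 hpf). No late library (24 or 36 hpf) of a cell type reached the level of any early one (4 or 7 hpf), and the gap between the highest late and the lowest early library was 2.04 points in each cell type. The calls behind each value were many, with 95% Wilson intervals at most 0.190 points wide, so the spread between replicates and not the counting of calls set the precision. These intervals cover counting error only.

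**Figure D1:**
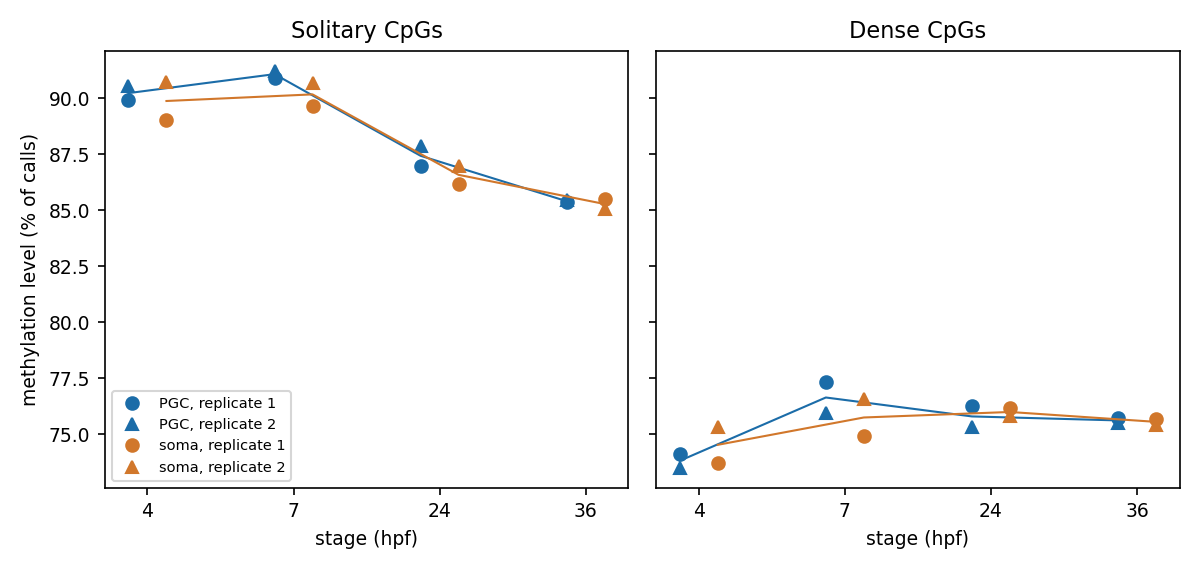
Methylation level (percent of calls) of solitary CpGs (left) and dense CpGs (right) in each library by stage in hpf, with circles for replicate 1, triangles for replicate 2 and lines through the means of 2 libraries. Solitary CpGs of both cell types lie at 89.0% or more at 4 and 7 hpf and at 87.9% or less at 24 and 36 hpf. Dense CpGs lie between 73.5% and 77.3% by calls. As the mean of the fractions of single CpGs, not shown, dense CpGs of PGCs were at 81.8% at 4 and 7 hpf and 79.4% at 36 hpf.

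Averaged over 4 libraries each, PGC levels at solitary CpGs were 86.4% ± 1.23 late and 90.7% ± 0.566 early (SD), a difference of -4.23 points. Somatic levels were 85.9% ± 0.839 late and 90.02% ± 0.835 early, a difference of -4.09 points. In a two-sided exact permutation test of 4 against 4 libraries each gave p = 0.0286, the smallest the design allows, and 0.0381 after Benjamini-Hochberg adjustment over the 12 tests of levels and shares made here. That test takes libraries of different stages as unpaired. With labels exchanged only within a replicate number, each gave an exact permutation p of 0.0556, the smallest then possible. The fall was larger without the CpGs of excess coverage, at -4.75 points in PGCs and -4.76 points in somatic cells, as those CpGs fell by only 1.93 points in PGCs and 1.66 points in somatic cells. Leaving out 1 library at a time gave between -4.72 and -3.88 points in PGCs and between -4.44 and -3.80 points in somatic cells. Where only the 17827 members (10.2%) with 3 or more calls in every library were used, the somatic difference was -2.98 points and late and early libraries overlapped (gap of -0.323 points, exact p = 0.0571).

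From 7 hpf on the level fell in both replicates of both cell types, while the direction from 4 to 7 hpf turned with the weighting. Between 4 and 7 hpf solitary CpGs of PGCs changed by 0.845 points on average, upward in both replicates, and those of somatic cells by 0.665 and -0.075 points in replicates 1 and 2. As the mean of the fractions of single CpGs, the level in PGCs was 91.47% and 91.23% at 7 hpf, against 91.73% and 91.66% at 4 hpf, lower in both replicates. From 7 to 24 hpf the level changed by -3.93 and -3.36 points in PGCs and by -3.48 and -3.70 points in somatic cells. The steps from 24 to 36 hpf were smaller, with changes of -1.62 and -2.43 points in PGCs and of -0.673 and -1.93 points in somatic cells. Single stages have 2 libraries each, and an exact test of 2 against 2 cannot give a p below 0.333, so these steps are values without a test.

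PGCs and somatic cells differed little at solitary CpGs. PGC minus soma was 0.908 and -0.203 points (4 hpf), 1.24 and 0.563 points (7 hpf), 0.794 and 0.906 points (24 hpf), and -0.157 and 0.409 points (36 hpf) in replicates 1 and 2. The mean over the 4 stages was 0.558 points, higher in PGCs in 6 of 8 same-numbered pairs, and was not past the threshold when cell types were exchanged within stages (exact permutation p = 0.0772, adjusted 0.0926). With exchange only within same-numbered pairs it was (exact p = 0.0313), and also without CpGs of excess coverage, where the mean was 0.605 points (exact p = 0.0123). It was 0.775 points without soma replicate 2 at 4 hpf and 0.618 points without soma replicate 1 at 36 hpf, both past the threshold (exact p = 0.0108 and 0.0494). Whether the late minus early difference itself differed between PGCs and somatic cells was tested directly, with a difference of -0.139 points (exact permutation p = 0.838). The sign of that difference turned without the CpGs of excess coverage (0.00785 points), and with any of 5 single libraries left out.

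Against dense CpGs in the same libraries, solitary CpGs were more methylated at every stage. The within-library difference was between 9.62 and 17.0 points and averaged 12.8 points (higher in 16 of 16 libraries, exact sign-flip p = 3.05e-05, the smallest possible, adjusted 0.000366). It gave an exact sign-flip p of 0.00781 with same-numbered PGC and soma libraries moved together, and of 0.000122 with the 4 hpf replicates counted as 1 sample. As the mean of the fractions of single CpGs it was 7.86 points, and with 3 or more calls in every library 24.1 points. Its size thus depends on weighting, coverage and what solitary CpGs are set against, and ran from 5.02 to 27.5 points over the alternatives tried. In PGCs the difference by calls was 11.6 ± 1.27 points at 24 hpf and 9.79 ± 0.221 points at 36 hpf, against 16.4 ± 0.898 points at 4 hpf and 14.4 ± 1.20 points at 7 hpf (SD, n = 2 each). In somatic cells it was 10.6 ± 0.808 and 9.72 ± 0.1503 points at 24 and 36 hpf, against 15.3 ± 0.0790 and 14.4 ± 0.487 points at 4 and 7 hpf.

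The distance between the classes was thus narrower late, with a change of -4.71 points in PGCs and of -4.73 points in somatic cells (exact permutation p = 0.0286 each, adjusted 0.0381). It was -7.79 points in PGCs and -8.44 points in somatic cells with dense CpGs taken as those with 4 or more listed CpGs on each side, and -7.38 and -7.84 points with 8 or more on both sides together. Dense CpGs themselves were at 75.7% late against 75.2% early in PGCs and at 75.8% late against 75.1% early in somatic cells. The direction at dense CpGs depends on the weighting: as the mean of the fractions of single CpGs they were at 80.6% at 24 hpf and 79.4% at 36 hpf in PGCs, against 81.8% at both early stages. Solitary CpGs were lower late under both weightings, with mean fractions in PGCs of 87.7% and 85.1% at 24 and 36 hpf, against 91.7% and 91.3% at 4 and 7 hpf. Without PGC replicate 2 at 4 hpf the narrowing in PGCs was -4.17 points and no longer past the threshold (exact p = 0.0571). Relative to all other CpGs, which fell by 1.70 points in PGCs and 1.69 points in somatic cells, solitary CpGs also fell further, with a change of the difference of -2.53 points in PGCs and -2.41 points in somatic cells (exact p = 0.0286 each). Such a fall was not particular to solitary CpGs. Those with the nearest CpG 50 to 99 bp away changed late minus early by -4.56 points in PGCs and -4.65 points in somatic cells. From 100 to under 150 bp the changes were -4.74 and -4.73 points. Between the cell types, PGC minus soma of the solitary minus dense difference was 0.546 points (exact permutation p = 0.159, adjusted 0.173), and passed the threshold only without PGC replicate 1 at 7 hpf among the libraries left out (0.759 points, exact p = 0.0448).

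Few solitary CpGs were unmethylated. Over all libraries together 3033 of them (1.74%) lay below 20%, 17521 (10.1%) between 20% and 80%, and 153417 (88.2%) at 80% or more, against 13.5%, 5.99% and 80.5% of dense CpGs. To leave out CpGs that were not methylated at the start, only CpGs at 80% or more, with 5 or more calls, in the 4 hpf libraries together were kept. These were 156401 of 173585 solitary CpGs with enough calls (90.1%) and 2981016 of 3674852 dense CpGs (81.1%), and the later libraries, which took no part in the choice, were then compared. In PGCs the kept solitary CpGs were at 94.67% and 94.66% (7 hpf), 90.97% and 91.29% (24 hpf) and 88.58% and 88.55% (36 hpf) in replicates 1 and 2. In somatic cells they were at 94.03% and 93.91% (7 hpf), 89.71% and 90.13% (24 hpf) and 88.68% and 88.18% (36 hpf).

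From this choice on, solitary CpGs fell further than dense ones in both replicates of both cell types. The starts were not equal, since the kept dense CpGs were at 96.8% in PGCs and 96.5% in somatic cells at 7 hpf, above the kept solitary CpGs. Late minus 7 hpf was -4.82 points at solitary and -2.67 points at dense CpGs in PGCs, and -4.80 points at solitary and -2.65 points at dense CpGs in somatic cells. The extra loss of -2.15 points was past the threshold when stages were exchanged within cell types over the 12 libraries (exact permutation p = 0.00444, the smallest possible, adjusted 0.0267). That test moves PGC and soma libraries separately. Moved together as same-numbered pairs, which leaves 15 relabellings, it gave an exact p = 0.0667, the smallest then possible, so the result could not pass. It was between -2.24 and -2.07 points with any 1 library left out.

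The extra loss was not particular to CpGs 150 bp or more apart, since the loss grew with distance up to about 50 bp and then levelled off. Among CpGs methylated at 4 hpf, PGC levels late minus 7 hpf changed by -2.94 points where the nearest CpG was 2 to 9 bp away, by -3.51 points at 10 to 24 bp, by -4.40 points at 25 to 49 bp, by -5.13 points at 50 to 99 bp and by -5.18 points from 100 to under 150 bp. Within the solitary class the changes were -4.50 points from 150 to under 200 bp, -5.32 points from 200 to under 300 bp, -5.33 points from 300 to under 500 bp and -5.52 points at 500 bp or more. The smaller loss below 200 bp, in the least isolated members, stood out in both cell types. With no choice by starting level, the members below 200 bp changed by -4.29 points in PGCs, against -4.86 points from 100 to under 150 bp. With CpGs of excess coverage left out as well, these changes were -4.72 and -4.85 points. Somatic cells ran along nearly the same line, with -2.94 points at 2 to 9 bp, -5.19 points at 50 to 99 bp and -5.21 points at 500 bp or more. The classes share libraries and were given no test of their own.

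**Figure D2:**
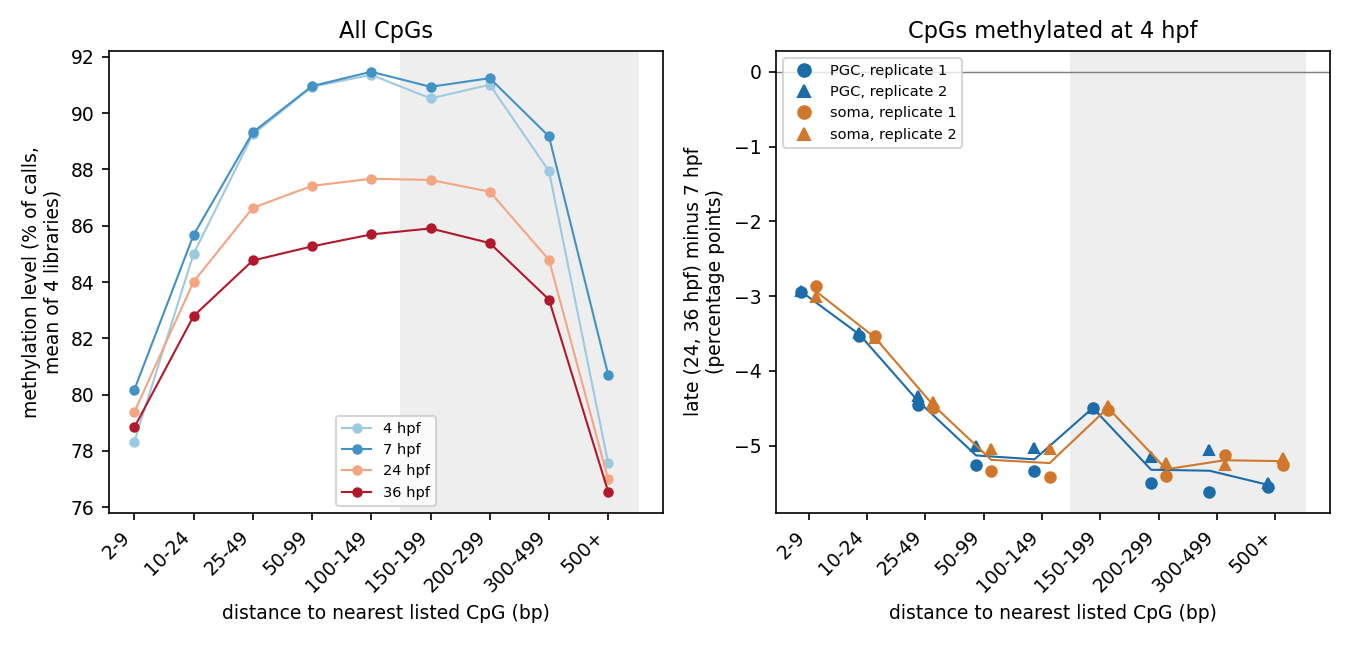
Left, mean methylation level (percent of calls, 4 libraries per stage) of all CpGs by distance to the nearest listed CpG in bp, with a line per stage. Right, change late minus 7 hpf in percentage points at CpGs methylated at 4 hpf, per cell type and replicate, with solitary CpGs shaded grey. The change goes from -2.94 points at 2 to 9 bp to between -5.52 and -4.49 points from 50 bp on.

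The level itself, with no choice by starting state, was highest from 50 to under 300 bp and lower at the most isolated CpGs. At 36 hpf in PGCs it was 85.98% from 150 to under 200 bp, 85.4% from 200 to under 300 bp, 83.5% from 300 to under 500 bp and 76.6% at 500 bp or more. At 7 hpf the same classes were at 91.3%, 91.7%, 89.7% and 81.6%. Much of the drop at the most isolated CpGs went with excess coverage: with 3798 of the 3862 CpGs at 500 bp or more kept, they were at 82.0% at 36 hpf and 87.8% at 7 hpf in PGCs, and the members below 200 bp at 86.5% and 92.4%.

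A fall of the mean can come from a few CpGs that lose all methylation or from many that lose some. To compare libraries of unequal depth, each CpG with 5 or more calls in a library was thinned to 5 calls. The share with 5, with 1 to 4 and with 0 methylated calls was computed as an expectation over all choices of 5. Below, fully methylated means 5 of 5 and partly methylated 1 to 4 of 5 such calls, not a state of the CpG. A CpG with some unmethylated copies can still give 5 of 5. Over both cell types the mean 5 of 5 share of solitary CpGs was 57.3% late and 73.7% early. Thinned to 10 calls, the mean share with all methylated was 38.2% late and 54.1% early. The share of solitary CpGs with 5 of 5 methylated in PGCs was 73.9% and 75.9% (4 hpf), 76.5% and 74.5% (7 hpf), 63.3% and 62.6% (24 hpf), and 54.4% and 54.2% (36 hpf) in replicates 1 and 2. In somatic cells the group means were 71.4% ± 4.02 (4 hpf), 73.0% ± 2.14 (7 hpf), 58.1% ± 0.0646 (24 hpf) and 54.0% ± 1.46 (36 hpf), with SD over 2 libraries each. At 5 calls late and early libraries did not overlap in either cell type, and the differences were -16.6 points in PGCs and -16.2 points in somatic cells (exact permutation p = 0.0286 each, adjusted 0.0381). Over all CpGs that were not solitary the same share changed by -9.47 points in PGCs and -8.16 points in somatic cells, and at dense CpGs by -4.34 and -1.93 points. These changes rest in part on replicate 1 at 4 hpf, where fewer CpGs had 5 calls. Of the 491063 dense CpGs with 5 calls in soma there, 51.0% were fully methylated, against 67.5% to 69.6% in the other early somatic libraries. In PGCs it was 59.9% of 1084087, against 69.0% to 70.3%, so the contrast with solitary CpGs rests on unequal sets of CpGs. Thinned to 10 calls the differences at solitary CpGs were -17.3 points in PGCs (exact p = 0.0857) and -14.6 points in somatic cells (exact p = 0.143), and late and early libraries overlapped, with gaps of -4.40 points in PGCs and -10.2 points in somatic cells between the lowest early and the highest late library.

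Partly methylated solitary CpGs, as judged by 5 calls, were more frequent late. Those with none of the 5 methylated were about as rare late as early. Solitary CpGs with 1 to 4 of 5 calls methylated made up 35.5% ± 0.554 at 24 hpf and 44.0% ± 0.270 at 36 hpf in PGCs, against 23.6% ± 1.26 at 4 hpf and 22.9% ± 1.44 at 7 hpf. This too was not limited to solitary CpGs: over both cell types the mean share with 1 to 4 was 41.0% late and 24.7% early at solitary CpGs, 28.7% late and 16.6% early at CpGs that were not solitary, and 23.7% late and 15.1% early at dense CpGs. The share with none methylated was between 1.52% and 1.85% in the 8 late libraries and between 1.44% and 2.08% in the 8 early ones. Most of the partly methylated CpGs were 1 call short: 29.7% of solitary CpGs at 36 hpf and 16.4% at 7 hpf had 4 of 5 in PGCs. Dense CpGs had a far larger share with none methylated, 13.1% to 15.0% late and 13.8% to 35.9% early. The 35.9% was in soma replicate 1 at 4 hpf, where 491063 dense CpGs had 5 calls.

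Fully methylated solitary CpGs were more frequent in PGCs than in somatic cells by 2.75 points on average over the stages (exact permutation p = 0.0185, adjusted 0.0381; within same-numbered pairs 0.0156). PGC minus soma was 5.26 and 1.60 points (4 hpf), 1.98 and 2.98 points (7 hpf), 5.18 and 4.41 points (24 hpf), and -0.581 and 1.19 points (36 hpf) in replicates 1 and 2. The share was thus higher in PGCs in 7 of 8 same-numbered pairs. The mean over the stages was also above 0 at CpGs that were not solitary, at 1.91 points, and at dense CpGs, at 1.68 points, and whether solitary CpGs differed from these was not tested. At 4 hpf dense CpGs gave 8.91 and -0.612 points in replicates 1 and 2. The number of solitary CpGs with 5 calls ran from 9326 in soma replicate 1 at 4 hpf to 162625, so the libraries did not hold the same CpGs. On the 3766 solitary CpGs with 5 or more calls in every library the PGC minus soma difference was 2.11 points (exact p = 0.00309), and late minus early was -13.1 points in PGCs and -13.2 points in somatic cells. Without PGC replicate 2 at 4 hpf the PGC minus soma difference was 2.50 points and just missed the threshold (exact p = 0.0509), and thinned to 10 calls in place of 5 it was 4.12 points with p = 0.336 by the same exact test.

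**Figure D3:**
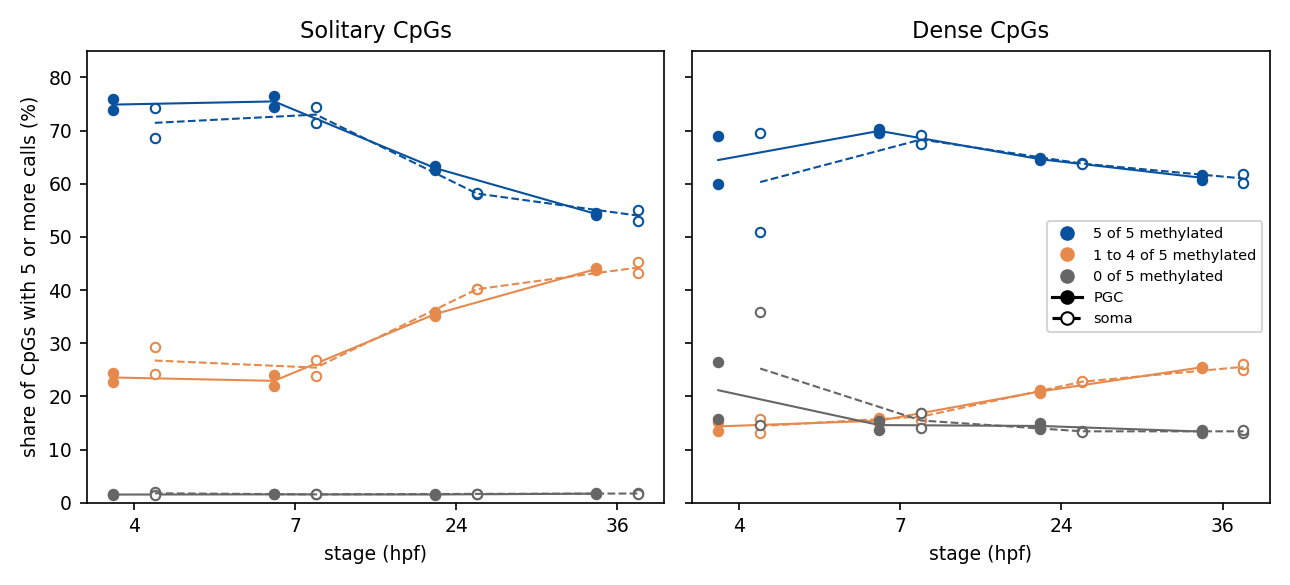
Share (percent) of CpGs with 5 or more calls that had 5, 1 to 4 or 0 of 5 thinned calls methylated, by stage in hpf, for solitary CpGs (left) and dense CpGs (right), with filled points for PGCs, open points for somatic cells, a point per library and lines through means. At solitary CpGs the share with 5 of 5 methylated falls to about 54% at 36 hpf while the share with 0 of 5 stays under 2.1%.

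The state of a solitary CpG went in part with that of its flanks, the nearest CpG on each side that had calls in every library. Where the flanks were at 80% or more, they lay at a median of 355 bp on each side. A listed CpG without calls in every library could lie between. Over all libraries 151417 members (87.0%) had 2 flanking CpGs that together were at 80% or more, 21525 (12.4%) had flanks between 20% and 80%, and 1020 (0.586%) had flanks below 20%. Where the flanks were below 20%, the solitary CpG between them was at 38.8% ± 0.789 at 36 hpf and 41.9% ± 2.49 at 7 hpf in PGCs (SD, n = 2 each). Across 173962 members with a flank on both sides the correlation of a member's level with that of its flanks was r = 0.341. It is a description over CpGs of the same libraries, with no test. Of the members below 20% that had a flank on both sides, 42.9% had flanks between 20% and 80%, 41.5% had flanks at 80% or more and 15.6% had flanks below 20%.

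Members with methylated flanks changed late minus early by -4.49 points in PGCs and -4.46 points in somatic cells, and their flanks by -3.99 and -4.07 points. Between flanks of 20% to 80% the members changed by -3.77 points in PGCs and -3.51 points in somatic cells, and the flanks by -4.19 and -4.35 points. Between flanks below 20% the changes were -1.23 points in PGCs and -3.01 points in somatic cells, where replicates 1 and 2 of somatic cells gave -4.34 and -1.67 points, and the flanks changed by -0.614 points in PGCs and -1.13 points in somatic cells. Flanks were sorted by their own level over all libraries, late ones included, so the sorting bears on their own change. Whether members or flanks changed more can therefore not be read from these classes.

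The fall was spread over the genome. On 25 of 25 chromosomes solitary CpGs were lower late than early in both cell types, with changes between -5.01 points (chromosome 9) and -3.40 points (chromosome 7) in PGCs and between -4.87 points (chromosome 9) and -2.96 points (chromosome 7) in somatic cells. Late and early libraries did not overlap on 23 chromosomes in PGCs and on 22 in somatic cells. Dense CpGs were higher late by calls on 22 of 25 chromosomes in each cell type, with the sign subject to the weighting as above. Solitary CpGs made up between 1.27% (chromosome 22) and 2.21% (chromosome 1) of the CpGs with calls in every library. The 3069 solitary CpGs within 500 kb of a chromosome's first or last listed CpG changed by -3.52 points in PGCs and -3.07 points in somatic cells, against -4.25 and -4.11 points elsewhere.

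**Figure D4:**
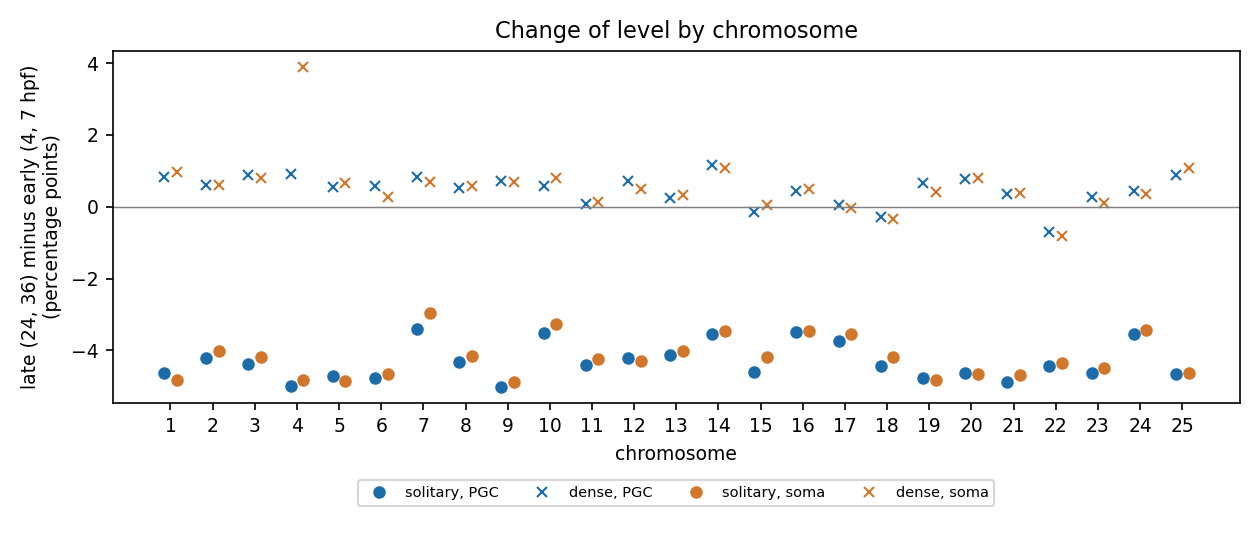
Change of methylation level, late minus early in percentage points, on each of 25 chromosomes, for solitary CpGs (circles) and dense CpGs (crosses) in PGCs (blue) and somatic cells (orange). Every circle lies between -5.01 and -2.96, whereas most crosses lie just above 0, with 3.9 at chromosome 4 in somatic cells.

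Single CpGs were tested across the genome with a quasi-binomial test on the 4840398 CpGs with 10 or more calls in each group, of which 46946 were solitary (27.0% of the members). At an adjusted p of 0.05 in this test, 207 solitary CpGs were lower late in PGCs, 0.441% of those tested, against 0.866% of all CpGs tested. In somatic cells 171 were lower (0.364%), against 0.681% of all. A single solitary CpG was called higher late in PGCs (0.00213%), against 0.0953% of all, and 0 in somatic cells, against 0.0974% of all. The counts rest on how far the spread of a CpG was shrunk to the common one. With a prior weight of 2 in place of 10, 0 solitary CpGs were called in PGCs in either direction. Over all CpGs tested, 0.000558% were then called lower and 0.00411% higher in PGCs, so those calls turned to mostly higher. With so few calls over all, the 0 is no contrast with them. In somatic cells 17 solitary CpGs were called lower (0.0362%), against 0.0592% of all, and 0 higher, against 0.0228% of all. The tested solitary CpGs were somewhat less covered, with a median of 220 calls against 235 calls over all those tested. Data were simulated with depths drawn from all CpGs tested, not from solitary ones alone. In them changes of 20 points were recovered in 0% of CpGs in either cell type. Changes of 40 points were recovered in 12.5% in PGCs and 5% in somatic cells, and changes of 60 points in 69.5% and 57.5%. The part of depth in these shares was not tested.

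Over all tested CpGs, called or not, changes at solitary CpGs were more often downward. The median tested solitary CpG changed by -4.76 points in PGCs and -4.61 points in somatic cells, against -2.29 and -2.27 points over all CpGs tested. The 10th percentile of the changes in PGCs was -12.99 points for solitary CpGs and -9.86 points for all. A lower late level was seen at 82.5% of tested solitary CpGs in PGCs and 81.4% in somatic cells, against 68.5% and 68.3% of all. At an unadjusted p under 0.05 the solitary CpGs were at 10.4% in PGCs and 8.92% in somatic cells, against 7.06% and 6.24% of all. Simulated CpGs without a change reached this in 1.95% of cases in PGCs and 2.16% in somatic cells. Among the solitary CpGs called lower the median change was -43.6 points in PGCs and -47.8 points in somatic cells. Over all CpGs called lower it was larger, at -51.4 and -53.6 points.

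The order of the shares called turned with the coverage asked for, and CpGs of excess coverage moved with it. With 20 or more calls per group, 5044 solitary CpGs were tested and 84 were called lower in PGCs (1.67%), against 1.01% of all CpGs then tested, and 70 in somatic cells (1.39%), against 0.815%. Of these 5044, 1804 (35.8%) were of excess coverage, against 4.37% of all CpGs then tested. With those left out as well, 24 of 3240 solitary CpGs were called lower in PGCs (0.741%), against 0.977% of all, and 21 in somatic cells (0.648%), against 0.786%. With 10 or more calls per group, CpGs of excess coverage made up 3.87% of the tested solitary CpGs, 52 of the 207 called in PGCs and 41 of the 171 called in somatic cells. Of the 207 called in PGCs and the 171 called in somatic cells, 124 were shared, 59.9% and 72.5% of each list, against 66.9% and 85.0243% of the lists of all CpGs called lower. The counts moved with single libraries, to between 60 and 126 in PGCs without replicate 2 at 4 hpf or without either library of 7 or 36 hpf, and to between 73 and 107 in somatic cells without replicate 2 at 4 hpf, either library of 7 hpf or replicate 1 at 36 hpf. The calls over all CpGs moved too: in these fits the share called lower in PGCs was 0.126% to 0.266% of solitary CpGs, against 0.280% to 0.630% of all, and in somatic cells 0.155% to 0.228%, against 0.305% to 0.482%. Between PGCs and somatic cells 0 solitary CpGs were called in either direction by the same test, as over all CpGs tested (0%), and 1334 (2.84%) were at an unadjusted p under 0.05, against 2.23% of all. Simulated CpGs without a change gave 2.54% there.

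The 3 solitary CpGs with the largest falls are the extremes of the called changes. They were taken from 12882 with 10 or more calls in each group, 3 or more in every library and no excess coverage. Of these 12882, 50 (0.388%) were called lower in both cell types and 0 higher, against 0.747% lower and 0.0685% higher of all 1888092 CpGs that met the same coverage limits, though with a prior weight of 2 no solitary CpG was called in PGCs. At danRer10 position 25445517 on chromosome 7 (positions counted from 1), with neighbours 224 bp before and 197 bp after it, PGCs had 28.6% and 57.1% (24 hpf) and 14.3% and 22.2% (36 hpf), against 100% and 85.7% (4 hpf) and 100% and 91.7% (7 hpf). Somatic cells had 7.14%, 12.5%, 13.6% and 0% in the late libraries, against 100% in each of the 4 early ones. Libraries held 3 to 22 calls there, and the changes were -65.4 points in PGCs (adjusted p = 0.00495 by the quasi-binomial test) and -90.4 points in somatic cells (adjusted p = 0.00109). No late library overlapped an early one.

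At position 36031077 on chromosome 17, with neighbours 205 and 160 bp away and 5 to 43 calls per library, PGCs had 37.5% and 45% (24 hpf) and 6.98% and 7.69% (36 hpf), against 87.5% to 100% in the early libraries. Somatic cells had 14.3%, 21.4%, 31.3% and 20% late, against 92.3% to 100% early. The changes were -78.7 points in PGCs (adjusted p = 0.000377 by the quasi-binomial test) and -74.9 points in somatic cells (adjusted p = 0.000511). In PGCs this CpG was partly methylated at 24 hpf and lower in both libraries of 36 hpf. At position 35940440 on chromosome 2, with neighbours 163 and 221 bp away and 4 to 18 calls per library, PGCs had 20%, 33.3%, 0% and 25% late, against 100% in all 4 early libraries. Somatic cells had 57.1%, 16.7%, 22.2% and 33.3% late, against 87.5% to 100% early, with changes of -85.2 points in PGCs (adjusted p = 0.00212, quasi-binomial) and -63.8 points in somatic cells (adjusted p = 0.0229). PGC minus soma was 5.12 points at the CpG of chromosome 7, 0.0474 points at that of chromosome 17 and -4.17 points at that of chromosome 2, none of them called. The genes and sequence around these positions were not analysed here.

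**Figure D5:**
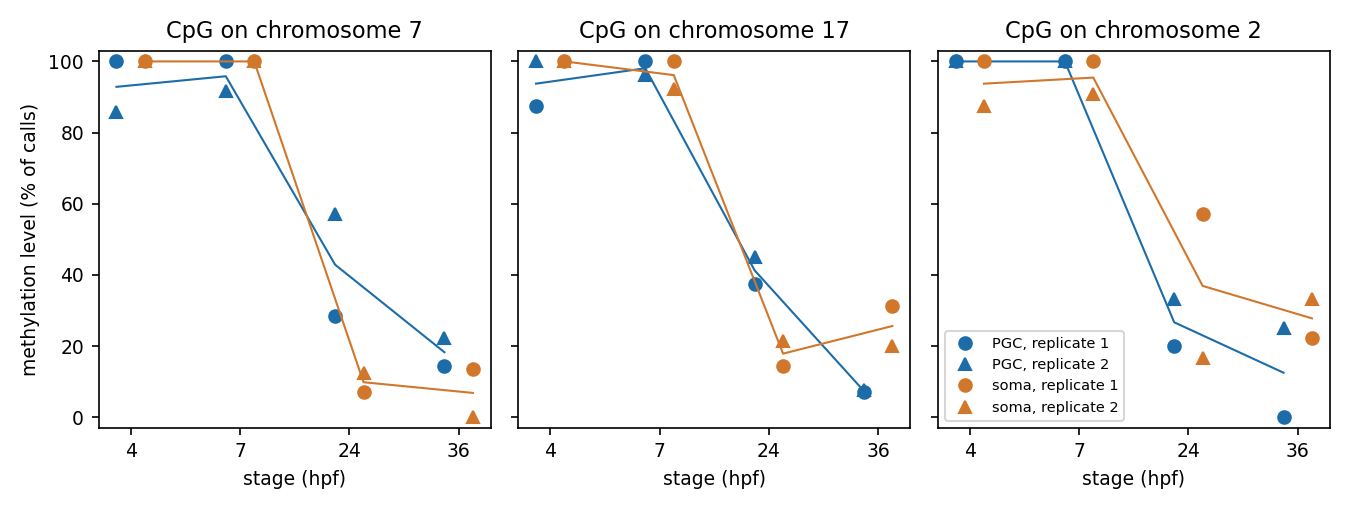
Methylation level (percent of calls) by stage in hpf at the 3 solitary CpGs with the largest falls, on chromosomes 7, 17 and 2, with PGCs in blue, somatic cells in orange, circles for replicate 1, triangles for replicate 2 and lines through the means. Early libraries lie at 85.7% or more and late libraries at 57.1% or less at each CpG.

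At the other end of the scale, 3 solitary CpGs were chosen for the lowest level and the highest coverage at that level. These had 0 methylated calls in all 16 libraries: position 8449743 on chromosome 2, with 523 calls in all, position 8525 on chromosome 24, with 315 calls, and position 44249110 on chromosome 1, with 273 calls. Counts of 0 allow levels of up to 0.574%, 0.952% and 1.10% at these 3 CpGs. With so few differences to see, they are given as examples of members that read as unmethylated at every stage in both cell types. Whether the fish used carried a CpG at these positions was not tested.

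The most isolated of the 12882 CpGs did not share 1 state. The most distant, at position 55270234 on chromosome 1, had its neighbours 5352 and 22551 bp away and an intermediate level, with a median of 41.4% in the 8 early libraries (25% to 71.4%) and 43.6% in the 8 late ones (36.4% to 75%). The next, position 8525 on chromosome 24, was the CpG above that read as unmethylated, with neighbours 3740 and 9435 bp away. The third, at position 1666898 on chromosome 3, had its neighbours 4998 and 2987 bp away and was at 84.6% to 100% late and 83.3% to 100% early. Gaps of this size may hold CpGs that were not listed, and no change at these 3 CpGs was called.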

How the data were processed

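WGBS libraries of sorted PGCs and somatic cells were made by the authors, who trimmed reads with fastp 0.12.5 (10 bp at each end), mapped them with WALT to danRer10 and lambda, removed duplicates with Picard 2.3.0 and called CpGs with MethylDackel, with strands merged. Sites were left out as variants only beyond set limits on opposite-strand depth and variant fraction, so some variants may remain. The deposited values are counts, the methylated calls and the coverage (all calls) of each CpG in each library, not normalized, with a table for either replicate number. Positions were taken as counted from 0, as MethylDackel writes them, and are printed counted from 1.

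Groups followed the labels. Solitary and dense CpGs were found by distance, and levels, thinned shares and exact two-sided permutation tests over libraries were computed in Python 3.11.15 (numpy 2.4.6, scipy 1.17.1, pandas 2.3.3, matplotlib 3.10.9). Single CpGs were tested by a quasi-binomial score test over all 4840398 CpGs with 10 or more calls per group. Its dispersion came from replicates, was shrunk to the common value of 1.10 with a prior weight of 10 and held at 1 or more, and p-values were adjusted by Benjamini-Hochberg over all of them. On 200000 simulated CpGs per comparison this test made 0 false calls. Among the simulated CpGs without a change, 1.95% to 2.54% had an unadjusted p under 0.05, so the test was conservative on them. The simulated counts had the common dispersion at every CpG, so false calls where dispersion differs between CpGs were not tested.

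Single CpGs were named by rule among those with 10 or more calls in each group, 3 or more in every library and no excess coverage. Named were the 3 with the largest falls or rises called in both cell types and the 3 with the largest called PGC and soma differences. The 3 lowest and the 3 most isolated were named too. No rise and no PGC and soma difference passed. The members, classes and rules were chosen with earlier results of these data known. Replicate numbers come from the labels. In 1348 bins of 1 Mb, deviations of same-numbered PGC and soma libraries at solitary CpGs correlated at 0.104, 0.220, 0.301 and 0.288 at the 4 stages, so these numbers were taken to pair the cell types. Across stages the correlations were as low as -0.0075, but 18 of 28 pairs of groups were over 0.1, so 0.104 at 4 hpf hardly sets that pair apart. Over all CpGs with calls in every library 25 of 28 pairs were over 0.1. The same-stage PGC and soma pairs there gave 0.381, 0.123, 0.617 and 0.732. Pairing of the cell types was thus an assumption at 4 hpf, and whether replicate numbers also pair stages was not settled. The main late minus early tests take stages as unpaired, and with the replicate block they could not pass. Alternatives covered weighting, coverage, distance, the dense class, thinning, the starting level, the block and each library left out. Sequences, genes and repeats of danRer10 were not analysed here.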

Additional observations from a re-analysis of the deposited data

How the results depend on the processing

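Of 141 alternatives other than leaving out a library, all but 38 kept the direction and the side of the threshold, or a count within 1.5 times. Solitary minus dense levels (5.02 to 27.5 points) kept theirs under all alternatives run, and the extra loss among CpGs methylated at 4 hpf (-2.67 to -2.12 points) under all but 1: with same-numbered PGC and soma libraries moved together it was -2.15 points (exact p = 0.0667, the smallest then possible). Alternatives that count the 4 hpf replicates as 1 sample, use 7 hpf alone, ask for 5 calls in every library, limit neighbours to 500 bp, leave out the 4 hpf libraries of replicate 1, join 20 calls with no excess coverage, or move same-numbered PGC and soma libraries together, were chosen after seeing the data. With the replicate block, labels were exchanged only within a replicate number. The smallest p is then 0.0556 for late minus early, so those results could not pass: -4.23 (PGC) and -4.09 (soma) for the level, -4.71 and -4.73 for solitary minus dense, -16.6 and -16.2 for the fully methylated share. PGC minus soma in level passed with the block (0.558 points, exact p = 0.0313), and the block within a cell type or stage changed no other call. With 7 hpf alone as early, where the smallest p is 0.0667, these were -4.66 and -4.24, -3.72 and -4.27, and -16.9 and -16.9. The somatic level difference was -2.98 with 3 or more calls in every library and -3.58 with neighbours at 300 bp (exact p = 0.0571 each). Solitary minus dense late in PGCs was -4.15 with 3 or more calls (exact p = 0.0571). PGC minus soma in level passed as mean of fractions (0.661), without excess coverage (0.605), at 100 bp (0.584), with neighbours within 500 bp (0.590) and with 4 hpf as 1 sample (0.558), and relative to dense CpGs as mean of fractions (0.475). The late minus early difference between cell types turned to 0.167 as mean of fractions and 0.00785 without excess coverage. Thinned to 10 calls, the fully methylated share gave -17.3, -14.6 and 4.12 for late minus early in PGCs and soma and for PGC minus soma (exact p = 0.0857, 0.143 and 0.336).

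Leaving out 1 library at a time, PGC minus soma in level was 0.341 to 0.775 and passed without soma replicate 2 at 4 hpf (0.775) or replicate 1 at 36 hpf (0.618). The difference between cell types in late minus early was -0.573 to 0.295, and turned to 0.0173 without PGC replicate 2 at 4 hpf, 0.0835 without PGC replicate 1 at 24 hpf, 0.295 without soma replicate 1 at 4 hpf, 0.110 without soma replicate 1 at 7 hpf and 0.0554 without soma replicate 2 at 24 hpf. Solitary minus dense late in PGCs was -5.33 to -4.17, and in PGC minus soma 0.321 to 0.771, passing without PGC replicate 1 at 7 hpf (0.759). The fully methylated share in PGC minus soma was 2.04 to 3.46, and missed the threshold without PGC replicate 2 at 4 hpf (2.50). Called solitary CpGs numbered 60 to 233 in PGCs, with 106, 116, 60, 84 and 126 without PGC 4 hpf replicate 2, 7 hpf replicate 1, 7 hpf replicate 2, 36 hpf replicate 1 and 36 hpf replicate 2. They numbered 73 to 185 in soma, with 73, 102, 73 and 107 without soma 4 hpf replicate 2, 7 hpf replicate 1, 7 hpf replicate 2 and 36 hpf replicate 1. They were 85 (PGC) and 70 (soma) with 20 or more calls per group, 24 and 21 with CpGs of excess coverage left out too, 0 and 17 with a prior weight of 2, 85 and 79 at an adjusted p of 0.01, 77 and 53 with 7 hpf alone, and 179 and 156 with the block. The share called lower was below that of all CpGs tested in each of these fits (0.181% against 0.420% in PGCs and 0.168% against 0.334% in soma at 0.01, 0.164% against 0.353% and 0.113% against 0.215% with 7 hpf alone, 0.379% against 0.765% and 0.332% against 0.651% with the block), other than with 20 or more calls per group and excess coverage kept. The cause of these moves was not tested. A solitary CpG had 2.40 calls on average in the shallowest library, which limits what single CpGs can show.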
